A study of Mus musculus with 18 samples.

Results

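Integrins that bind extracellular matrix were followed in mouse knee cartilage after rupture of the anterior cruciate ligament. The set comprised 10 genes chosen by their known role out of 27 integrin subunit genes listed and 49184 genes in the files. Itga1, Itga2, Itga10 and Itga11 encode the α subunits that bind collagens, Itga3 and Itga6 those that bind laminins, Itga5 and Itgav those that bind fibronectin and other ligands with an arginine-glycine-aspartate (RGD) motif, and Itgb1 and Itgb5 encode β partners.

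Male C57bl6 mice (C57Bl/6J in the study's methods), 12 weeks old, had the ligament of the right knee ruptured by a mechanical load, with no genetic alteration. Femoral condyle cartilage caps were taken from injured right knees and uninjured contralateral left knees 1 or 7 days later, and from naïve mice labelled as a day 7 group. Day 1 contralateral, day 1 injured, day 7 contralateral and day 7 injured cartilage gave 3 libraries each and naïve cartilage gave 6, making 18 libraries of total RNA depleted of ribosomal RNA. Each library was a pool of knees, so p-values measure the spread between pools and not between mice. The number of mice per pool is 4 in the deposited design text, whereas the schematic of the study shows 2 at day 1, 4 at day 7 and 6 naïve mice. It gives each naïve library 2 knees of the same side, so that the 6 naïve libraries would be left and right pools from 3 sets of mice. The labels do not say which belong together, and SDs and tests with 6 naïve libraries treat them as independent, which can make p-values too small. The contralateral knee belongs to an injured animal and is not an untouched control, and a pooled tissue library does not tell fewer cells of a type from less RNA per cell.

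Integrins are receptors of 1 α and 1 β chain that span the cell membrane and join the matrix outside to talin, kindlin and the actin cytoskeleton inside. The β1 chain pairs with every α subunit of the set, and αv also pairs with β5. Chondrocytes are known to hold type II collagen chiefly through α10β1, whereas α11β1 is known from fibroblasts and other mesenchymal cells that bind type I collagen. The α5β1 receptor binds fibronectin, and αv receptors bind vitronectin and can release TGFβ from its latent complex.

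The promoters of 4 members are shown because these genes carry the results below: Itga11 had the largest change, Itgb1 and Itgb5 are the β chains, and Itga10 is the chondrocyte collagen receptor. Sequences are from RefSeq on GRCm38.p6, run 5′ to 3′ on the strand of the gene and end at the base before the annotated start, Itga11 being shortened to 221 bases to stop at an upstream start in the other annotation used. Capitals mark matches on either strand to a TEAD motif (GGAATG) or a GC box (GGGCGG).
Itga11, chr9:62677605-62677825, plus strand: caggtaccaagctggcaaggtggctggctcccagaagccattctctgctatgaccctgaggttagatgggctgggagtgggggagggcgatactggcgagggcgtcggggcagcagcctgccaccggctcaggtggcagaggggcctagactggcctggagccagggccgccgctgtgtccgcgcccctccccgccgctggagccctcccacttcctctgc
Itga10, chr3:96645334-96645583, plus strand: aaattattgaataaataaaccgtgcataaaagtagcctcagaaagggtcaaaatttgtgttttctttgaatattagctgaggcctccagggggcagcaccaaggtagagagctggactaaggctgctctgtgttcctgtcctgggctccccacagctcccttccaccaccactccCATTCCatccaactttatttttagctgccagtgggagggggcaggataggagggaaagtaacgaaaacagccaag
Itgb1, chr8:128685404-128685653, plus strand: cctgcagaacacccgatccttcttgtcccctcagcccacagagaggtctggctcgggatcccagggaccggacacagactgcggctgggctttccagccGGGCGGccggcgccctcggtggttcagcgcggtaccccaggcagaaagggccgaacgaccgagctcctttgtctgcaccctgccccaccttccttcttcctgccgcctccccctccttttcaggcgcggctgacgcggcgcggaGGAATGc
Itgb5, chr16:33829415-33829664, plus strand: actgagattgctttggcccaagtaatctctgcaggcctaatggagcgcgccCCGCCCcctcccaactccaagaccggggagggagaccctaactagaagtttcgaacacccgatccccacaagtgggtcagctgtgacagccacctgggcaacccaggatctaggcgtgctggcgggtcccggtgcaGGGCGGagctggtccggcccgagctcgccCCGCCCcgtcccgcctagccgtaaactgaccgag
An AP-1 motif (TGANTCA) and a TATA box (TATAAA) were also searched on both strands, and no matches overlapped in these 4 windows. Of the 10 members, 9 had a window in the table, Itga6 being the exception. The GC box occurred in 4 of them (Itgb1, Itga3, Itga5 and Itgb5), and in 32.7% of all 32851 promoter windows of 250 bases. The TEAD motif occurred in Itga10, beginning 75 bases before the start, and in Itgb1, beginning 7 bases before it, and in 12.6% of all windows. Neither AP-1 letters nor the TATA box occurred in a member, against 6.75% and 12.4% of all windows. A match describes letters in a window and not a bound site.

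Sequencing depth ranged from 16074762 to 41794005 estimated counts per library (median 25465706), and each of the 10 members had counts in all 18 libraries, from 59 for Itga3 to 15896 for Itgb1 in a library. Chondrocyte markers were present in every library, led by Col2a1, the type II collagen of cartilage, with a summed level of 5225 to 9450 CPM (counts scaled to a common library size by trimmed mean of M values, TMM) over 16 markers in naïve libraries. Markers of other tissues were present too. Over 9 red cell genes the naïve sums were 30927 to 41443 CPM, and over 10 neutrophil genes 10101 to 15047 CPM, both above the chondrocyte sums. Day 7 contralateral replicate 1 stood apart, with 42.5% of its counts in its 10 most abundant genes against 16.6% to 29.8% in the other 17 libraries, and member values against that group are given with and without it.

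In day 7 injured cartilage 7 members were higher than in naïve cartilage and 0 were lower, where a call means a false discovery rate (FDR, Benjamini-Hochberg, edgeR quasi-likelihood test) of at most 0.05 and a change of at least 1.5-fold. Among all 21129 genes tested, 10.4% were called higher and 6.11% lower. The called members were Itga11, Itga5, Itgb5, Itgb1, Itga3, Itgav and Itga10, and the median log2 fold change of the 10 members was 0.79 against -0.04 for all genes. Against the day 7 contralateral knees, 6 members were called higher and 0 lower, with 9.33% of 21262 genes called higher and 3.23% lower. Without contralateral replicate 1, 5 members were called (Itgav being lost), with 2030 genes higher and 434 lower. Over all fits that left out a library, 1508 to 2030 genes were higher and 279 to 1058 lower against contralateral. Against naïve the ranges were 1836 to 2292 higher and 797 to 1425 lower. The 3 injured libraries are shared by these comparisons. The number of calls depends on scaling: with library totals in place of TMM, the median of all genes moved to -0.35, the genes called against naïve went from 2207 higher and 1291 lower to 1268 higher and 4556 lower, and 3 members were called (Itga11, Itgb5 and Itgb1). Against the contralateral knees the same scaling gave 1435 higher and 1305 lower in place of 1984 and 686, with a median of -0.19.

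**Figure D1:**
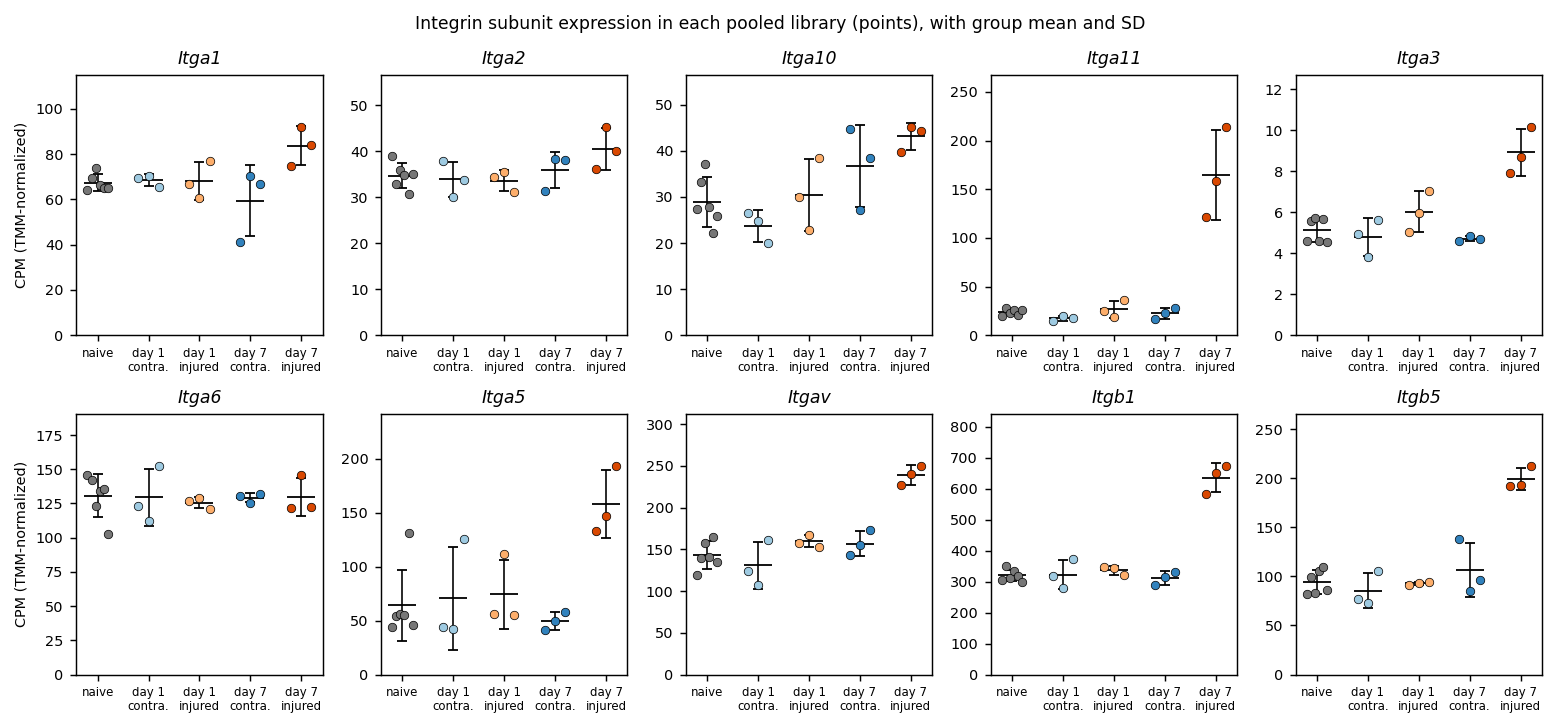
Level of each of the 10 integrin genes in every library, in TMM-scaled CPM on a linear axis from 0 with its own scale for each gene, with points for libraries by group and bars for the group mean and SD. The 3 day 7 injured libraries of Itga11 lie at 121.8 to 214.2 CPM, above the 14.9 to 36.1 CPM of the other 15, whereas those of Itga6 lie among the rest.

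Among the collagen-binding subunits, Itga11 showed the largest change of any member. The gene lies on chromosome 9 (62677826-62783982, GRCm38, plus strand). Its level was 19.5 to 28.1 CPM in naïve libraries, with a median of 24.4. In day 7 contralateral libraries it was 16.8, 22.8 and 27.9 CPM, and in day 7 injured libraries it was 121.8, 158.1 and 214.2 CPM. The injured libraries were thus all above every other library, by more than the whole range of the controls. The log2 fold change was 2.80 against naïve (SE 0.185, 95% confidence interval 2.41 to 3.20, FDR = 4.73e-08), a 6.98-fold difference, and 2.86 against contralateral (SE 0.249, FDR = 5.00e-07). Without day 7 contralateral replicate 1, the second value was 2.72.

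Itga10, Itga1 and Itga2 had smaller fold changes. Itga10 was 22.2 to 37.2 CPM in naïve libraries (median 27.6), 44.8, 27.2 and 38.4 CPM in day 7 contralateral and 39.8, 45.2 and 44.4 CPM in day 7 injured libraries. The injured libraries were above all naïve libraries but overlapped the contralateral range. The log2 fold change of Itga10 was 0.60 against naïve (SE 0.160, FDR = 0.0113), 1.51-fold and so barely over the limit, and 0.23 against contralateral (SE 0.207, FDR = 0.488), or 0.42 without contralateral replicate 1 (FDR = 0.225). The first call held in 1 of 9 other settings and in 9 of 15 fits that left out a library. Itga1, which pairs with β1 as a receptor for collagens of basement membranes, was 64.2 to 74.1 CPM in naïve and 75.0, 92.1 and 84.0 CPM in day 7 injured libraries. Those groups did not overlap, but the log2 fold change of 0.33 (SE 0.0817, FDR = 0.00668) was under 1.5-fold and was not a call. Against the contralateral libraries (41.4, 70.3 and 66.7 CPM) it was 0.49 (FDR = 0.0281), and 0.31 without replicate 1. Itga2, the platelet and epithelial collagen receptor, had overlapping ranges of 30.8 to 38.9 CPM in naïve and 36.1 to 45.3 CPM in day 7 injured libraries, and its log2 fold change was 0.24 against naïve (FDR = 0.0619) and 0.17 against contralateral (FDR = 0.352), or 0.10 without replicate 1.

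Of the laminin-binding subunits, Itga3 was called higher and Itga6 was not called. Itga3 was the least abundant member, at 4.56 to 5.74 CPM in naïve libraries (median 5.08), 4.60, 4.86 and 4.70 CPM in day 7 contralateral and 7.90, 8.68 and 10.2 CPM in day 7 injured libraries. Injured libraries lay above both other groups without overlap. Its log2 fold change was 0.82 against naïve (SE 0.147, FDR = 6.52e-04) and 0.92 against contralateral (SE 0.171, FDR = 9.57e-04), the latter not a call with a transcript length offset (0.59, FDR = 0.103) but a call without contralateral replicate 1 (0.92). Itga6 was far more abundant and was not called, with 102.4 to 145.5 CPM in naïve (median 134.9), 130.5, 125.6 and 131.7 CPM in day 7 contralateral and 121.5, 145.8 and 122.2 CPM in day 7 injured libraries. All ranges overlapped. The log2 fold change of Itga6 against naïve was 0.01 (95% confidence interval -0.23 to 0.26, FDR = 0.957), an interval that leaves out a 1.5-fold change in either direction under this scaling. Against contralateral it was 0.01, or 0.04 without replicate 1. With library totals it was -0.31 against naïve (FDR = 0.0412) and -0.39 against day 1 injured cartilage (FDR = 0.0258), both under 1.5-fold, where the median of all genes was -0.35 and -0.45.

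Both RGD-binding subunits were called higher in injured cartilage at day 7. Itga5, the fibronectin receptor subunit, was 43.7 to 130.8 CPM in naïve libraries with a median of 54.9, 41.6, 49.7 and 57.6 CPM in day 7 contralateral and 133.3, 146.6 and 193.2 CPM in day 7 injured libraries. The injured libraries were above all others of these groups, but naïve replicate 5 at 130.8 CPM came close to the lowest of them. Day 1 contralateral replicate 3 (125.7 CPM) and day 1 injured replicate 2 (111.4 CPM) were likewise high, while the remaining 4 day 1 libraries were 42.3 to 56.4 CPM. The log2 fold change was 1.31 against naïve (SE 0.382, 95% confidence interval 0.49 to 2.12, FDR = 0.0181) and 1.67 against contralateral (SE 0.442, FDR = 0.0132). Without day 7 injured replicate 3 neither was a call, at 1.14 (FDR = 0.0865) and 1.49 (FDR = 0.0632). Without day 7 contralateral replicate 1 the second value was 1.58 (FDR = 0.0479).

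Itgav, whose protein pairs with β5, β1 and other β chains, was 119.2 to 165.2 CPM in naïve libraries with a median of 140.1. It was 142.6, 155.1 and 173.2 CPM in day 7 contralateral and 226.6, 240.7 and 249.8 CPM in day 7 injured libraries. No injured library overlapped either group. The log2 fold change was 0.76 against naïve (SE 0.117, FDR = 1.72e-04) and 0.61 against contralateral (SE 0.138, FDR = 0.00466). The latter was just over the 1.5-fold limit and was a call in 4 of 8 other settings and in 15 of 18 fits that left out a library. Leaving out contralateral replicate 1, contralateral replicate 2 or injured replicate 3 put it below that limit, at 0.56 without contralateral replicate 1.

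Both β chains were called higher, by close to 1 log2 unit. Itgb1 was the most abundant member, at 297.7 to 349.5 CPM in naïve libraries (median 315.7), 288.8, 315.1 and 332.4 CPM in day 7 contralateral and 582.5, 651.3 and 672.9 CPM in day 7 injured libraries. Every injured library was far above all 15 others, whose highest value was 371.4 CPM. Its log2 fold change was 1.01 against naïve (SE 0.0894, FDR = 8.41e-07) and 1.03 against contralateral (SE 0.110, FDR = 4.34e-06), or 1.00 without replicate 1. Itgb5 was 81.8 to 110.1 CPM in naïve libraries (median 92.4) and 191.8, 193.6 and 212.5 CPM in day 7 injured libraries. In day 7 contralateral libraries it was 137.9, 85.3 and 96.5 CPM, the first from the replicate that stood apart, and no group overlapped the injured one. The log2 fold change of Itgb5 was 1.10 against naïve (SE 0.118, FDR = 5.38e-06) and 0.90 against contralateral (SE 0.169, FDR = 9.58e-04), or 1.15 without contralateral replicate 1.

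**Figure D2:**
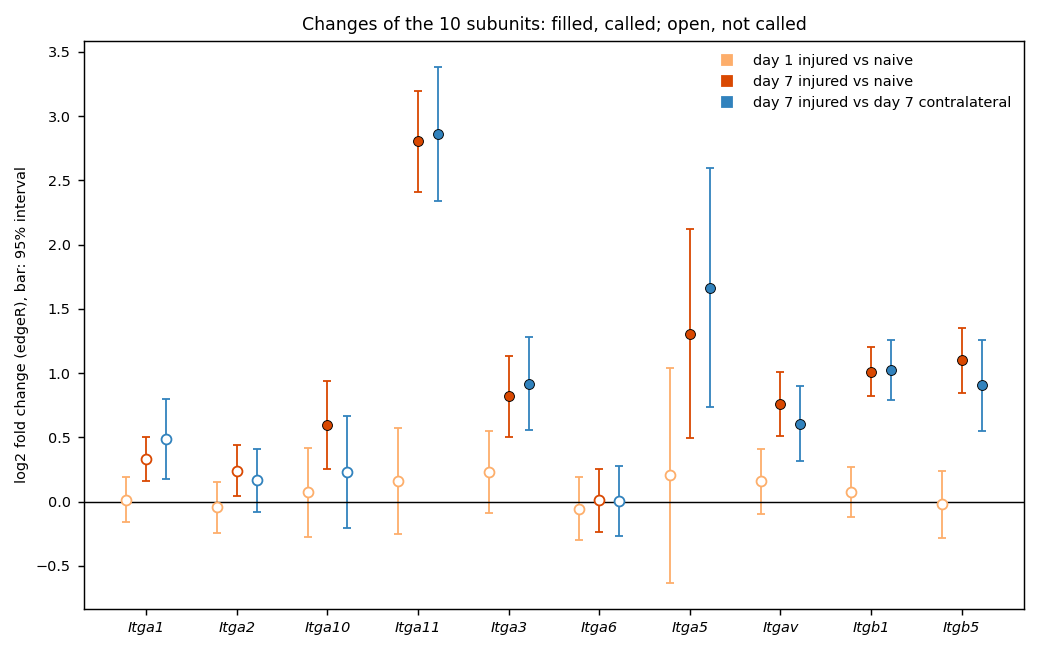
Log2 fold change of each integrin gene with its 95% confidence interval, for day 1 injured against naïve, day 7 injured against naïve and day 7 injured against day 7 contralateral cartilage, filled where called and open where not. Itga11 stands at 2.80 and 2.86 at day 7, Itga6 at 0.01 in both day 7 comparisons, and day 1 values of all 10 lie between -0.05 and 0.23.

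In counts of non-overlap, the 3 injured libraries at day 7 exceeded all 6 naïve libraries for 8 members (all but Itga2 and Itga6), which was so for 17.4% of all genes tested. They exceeded all 3 contralateral libraries for 7 members (18.6% of genes; without contralateral replicate 1, 8 members, with Itga10, and 26% of genes) and all 3 day 1 injured libraries for 8 members (22.8% of genes). Against day 1 injured cartilage, 5 members were called higher and 0 lower at day 7, where 9.04% of genes were called higher and 6.38% lower. These were Itga11 (log2 fold change 2.64), Itgb5 (1.12), Itgb1 (0.94), Itgav (0.60) and Itga3 (0.59). Itga5 had a value of 1.10 there (FDR = 0.0930). With library totals the genes called went from 1910 higher and 1347 lower to 793 higher and 6042 lower. Only 2 members were then called, Itga11 and Itgb5. The Itga3 call held in 1 of 9 other settings and in 8 of 15 fits that left out a library, and the Itgav call in 3 of 9 and 12 of 15. Both were lost, leaving 3 members, without day 1 injured replicate 1 or without day 7 injured replicate 3.

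At day 1 no member was called. Between day 1 injured and naïve cartilage, edgeR called 0 members and 0% of 21129 genes, with 959 genes and 0 members at an unadjusted p under 0.05, and DESeq2 called 0 members and 15 genes, all lower. Member log2 fold changes were -0.05 to 0.23 with FDR of at least 0.987. Between day 1 injured and contralateral cartilage, 0 members and 0% of genes were called by edgeR and by DESeq2, with 1383 genes and 1 member at an unadjusted p under 0.05. That member was Itga11, at 25.1, 19.0 and 36.1 CPM in injured and 14.9, 20.2 and 17.4 CPM in contralateral libraries. Its groups overlapped, and its log2 fold change was 0.61 (FDR = 0.755).

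The uninjured knees of injured mice were also compared with naïve knees. At day 7 edgeR called 0 members and 0% of genes between contralateral and naïve cartilage, with 3220 genes and 0 members at an unadjusted p under 0.05, and DESeq2 called 0 members and 8 genes. Without contralateral replicate 1, edgeR again called 0 members and 0 genes. At day 1, edgeR again called 0 members and 0% of genes, with 554 genes and 1 member (Itga11, log2 fold change -0.45, FDR = 1.000) at an unadjusted p under 0.05, and DESeq2 called 0 members, 1 gene higher and 1 lower.

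Whether the injured-minus-contralateral difference was itself larger at day 7 than at day 1 was tested as an interaction. Of the 10 members 2 passed, where 3.53% of 21262 genes were called higher and 0.245% lower. The difference was larger at day 7 by 2.25 log2 units for Itga11 (SE 0.335, FDR = 7.58e-04) and by 0.96 for Itgb1 (SE 0.155, FDR = 0.00132). Itgb5 (0.78, FDR = 0.0796) and Itga5 (1.60, FDR = 0.181) did not pass. Without day 7 contralateral replicate 1, Itgb5 passed too, at 1.04 (FDR = 0.0084), while Itga11 and Itgb1 were 2.11 and 0.94 and Itga5 was 1.51 (FDR = 0.242). With library totals the Itgb1 difference was 0.75 and did not pass (FDR = 0.117). The counts over all genes moved too, from 750 higher and 52 lower to 252 and 94 with library totals. DESeq2 gave 979 and 160, with 3 members called. Fits that left out a library gave 393 to 892 higher and 9 to 91 lower.

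Levels were set between genes on the deposited TPM (transcript abundance scaled to a common total), which take transcript length into account. Over the 18 libraries the median TPM was 56.7 for Itgb1, 20.8 for Itgb5 and for Itga6, 17.4 for Itgav, 9.10 for Itga5, 5.02 for Itga1, 3.49 for Itga10, 2.88 for Itga2, 2.76 for Itga11 and 0.773 for Itga3. In naïve cartilage, Itgb1 stood clear of the rest at 48.8 ± 4.31 TPM (SD, n = 6), whereas Itga6 (20.0 ± 2.73) and Itgb5 (17.6 ± 2.67) were within their spread of each other, as were Itgb5 and Itgav (11.5 to 18.2 TPM). Itga10 (3.12 ± 0.642), Itga2 (2.76 ± 0.576) and Itga11 (2.57 ± 0.243) were also within their spread. In day 7 injured cartilage, Itga11 was at 14.8 ± 5.94 TPM (SD, n = 3), in the range of Itga5 (16.2 ± 4.81), Itga6 (16.5 ± 2.97) and Itgav (19.1 ± 2.64). TPM are not TMM-scaled and were not tested between groups. Itgb1 was 69.7, 74.9 and 89.1 TPM in day 1 injured and 60.4, 79.1 and 87.8 TPM in day 7 injured libraries. Its CPM was not called at day 1. The summed TPM of the member α genes was 46.5 to 72.4 in naïve, 71.7 to 101.9 in day 1 injured and 59.9 to 94.5 in day 7 injured libraries.

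The make-up of the α subunits was described as shares. Of the summed TPM of the 8 α genes, Itga11 took 4.64% ± 0.836 in naïve (3.39% to 5.62%) and 18.4% ± 3.53 in day 7 injured libraries (15.4% to 22.3%). Itga6 took 35.6% in naïve (31.6% to 40.5%) and 21.4% in day 7 injured libraries (18.2% to 23.8%), also without overlap. A share can fall while a level does not, and the CPM of Itga6 was not called under either scaling above. Itga5 took 15.4% in naïve (12.1% to 25.6%) and 20.5% in day 7 injured libraries (18.5% to 22.8%), with overlapping ranges, and Itgav took 24.7% and 24.8%. In day 7 contralateral libraries Itga11 took 2.93% to 5.14%, Itga6 30.6% to 35.0% and Itga5 9.73% to 13.2%. These ranges did not overlap the injured ones, whereas that of Itgav (26.9% to 35.8%) did. Among the 4 collagen-binding subunits alone, Itga11 took 20.1% ± 2.19 of the TPM in naïve and 56.8% ± 5.98 in day 7 injured libraries, while Itga1 took 34.3% and 18.2%, Itga10 24.1% and 14.9%, and Itga2 21.5% and 10.1%. The ratio of Itgb1 TPM to the summed TPM of the α genes other than Itgav was 1.16 ± 0.10 in naïve (0.98 to 1.24) and 1.30 ± 0.09 in day 7 injured libraries (1.20 to 1.38), with overlapping ranges. In day 7 contralateral libraries the ratio was 1.12 to 1.19, just below the injured range. These shares are descriptions with no test.

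**Figure D3:**
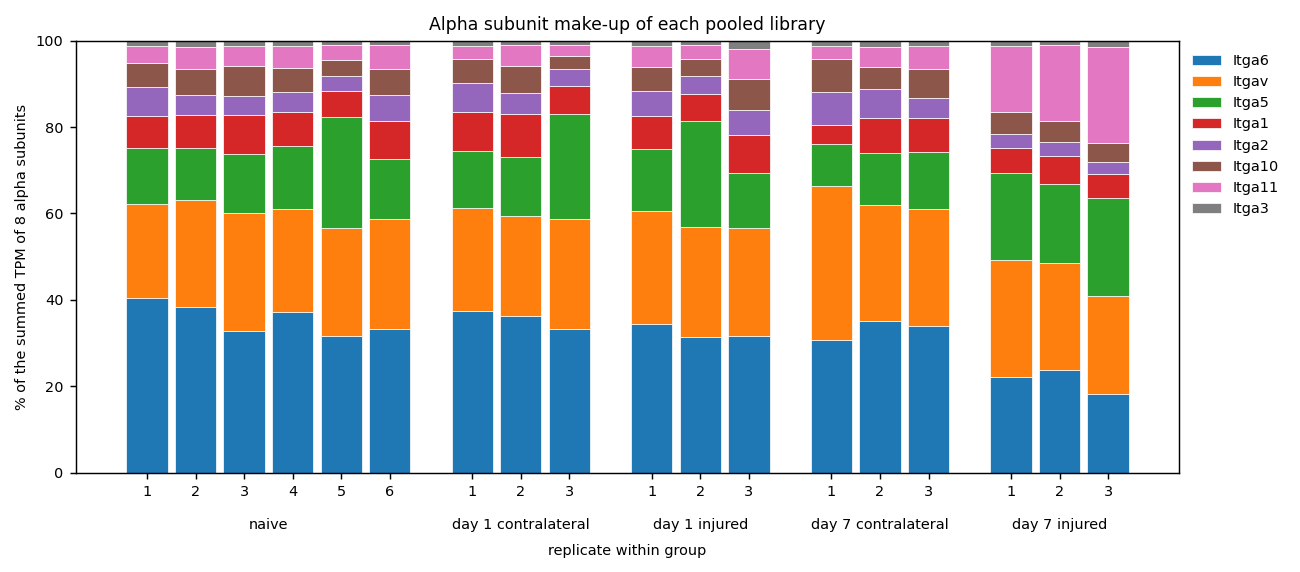
Share of each α subunit in the summed TPM of the 8 α genes, in percent, as 1 stacked bar for each library, by group. Itga11 makes up on average 4.64% in naïve and 18.4% in day 7 injured cartilage, and Itga6 makes up 35.6% and 21.4%.

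The other 17 integrin subunits, most of them of leukocytes and platelets, gave calls in both directions. Against naïve cartilage 2 of 17 were called higher and 0 lower at day 7, with a median log2 fold change of -0.27. The number higher was close to the share of all genes, of which 10.4% were called higher and 6.11% lower. The 2 were Itgb4, the β partner of α6 in hemidesmosomes, from 10.1 ± 1.80 to 24.3 ± 5.67 CPM (log2 fold change 1.28, FDR = 5.83e-05), and Itgb8, a partner of αv, from 5.12 ± 0.854 to 9.14 ± 1.51 CPM (0.85, FDR = 0.00144). Itga2b (-0.58, FDR = 0.00249) and Itgad (-0.57, FDR = 0.0137) were just under 1.5-fold and were called lower in 8 and 6 of 9 other settings. With library totals 9 of the 17 were called lower and 1 higher, where 4556 of all 21129 genes were lower and 1268 higher. Against the contralateral knees the same 2 genes were called higher and 6 were called lower, with 9.33% of all genes higher and 3.23% lower. The 6 were Itga2b of platelets (-1.01), Itgb7 (-0.84), Itgad (-0.82), Itgal (-0.71), Itgb2l (-0.70) and Itgb2 (-0.60), the last 5 being leukocyte subunits. Without contralateral replicate 1 the number lower was 4, with Itga2b (-0.57), Itgb7 (-0.58) and Itgb2 (-0.57) under 1.5-fold and Itgam (-0.64) over it. Itgb3, which pairs with αv and with the platelet αIIb, was 359 ± 19.9 CPM in naïve and 292 ± 26.1 CPM in day 7 injured libraries and was not called (-0.28, FDR = 0.0625). The remaining 8 of the 17 were not called against either control. Against naïve their log2 fold changes were -0.53 for Itgb6, -0.38 for Itga4, -0.31 for Itgam, -0.23 for Itgae, -0.19 for Itgax, 0.20 for Itga8, 0.30 for Itga9 and 0.41 for Itga7. Summed platelet markers (10 genes, Itga2b among them, led by Ppbp) were 627 to 731 CPM in naïve and 390 to 500 CPM in day 7 injured libraries, with 4 of 10 called lower. Those of neutrophils were 10101 to 15047 and 7947 to 10933 CPM, which overlap, with 2 of 10 called lower. Their part in the integrin values was not tested.

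Inside the cell, integrin tails meet the adaptors and kinases of focal adhesions. Of 29 such genes tested, 5 were called higher and 0 lower against naïve, and the median log2 fold change was 0.22. Of all genes 10.4% were called higher and 6.11% lower. With library totals 3 were higher and 2 lower, with a median of -0.09, where the median of all genes was -0.35. Parva, which links integrin-linked kinase to actin, was at 56.9 ± 7.68 CPM in naïve and 142 ± 23.1 CPM in day 7 injured libraries (log2 fold change 1.34, FDR = 1.20e-06). Bcar1, the adaptor p130Cas, had a value of 1.13, Tgfb1i1 (the paxillin relative Hic-5) of 1.09, Fermt2 (kindlin-2) of 0.88 and Ptk2 (focal adhesion kinase) of 0.71. The abundant linkers were not called, with log2 fold changes of -0.21 for Tln1 (talin), 0.16 for Vcl (vinculin) and -0.02 for Flna (filamin). Against the contralateral knees 6 were higher, the same 5 and Tln2 (0.79), and Fermt3, the kindlin of blood cells, was lower (-0.67). Without contralateral replicate 1, 6 were higher and 0 lower, Fermt3 being at -0.54. Fermt1, the epithelial kindlin, was too low to be tested.

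Genes for proteins that bind, move or switch integrins were called higher for 6 of 26 tested and lower for 0 against naïve, with a median of 0.15. The shares over all genes were 10.4% higher and 6.11% lower. With library totals 4 were higher and 2 lower, with a median of -0.16 against -0.35 for all genes. Dab2, an endocytic adaptor for integrins, was 60.1 ± 19.5 CPM in naïve and 188 ± 46.7 CPM in day 7 injured libraries (log2 fold change 1.66, FDR = 1.89e-04). The tetraspanins Cd63 (1.07), Cd81 (0.95) and Cd9 (0.66), the caveolar protein Cav1 (0.94) and Kank2 (0.87), which binds talin, were the others. All but Cd63 were also called against the contralateral knees, and without contralateral replicate 1 all but Cd9 (0.52) were. Collagen receptors outside the integrin family were called higher for 2 of 6, with Mrc2, an endocytic receptor for collagen, at 1.73 and Ddr2, a collagen-binding kinase, at 0.69. Gp6 of platelets was lower (-0.70). With library totals 1 of these 6 was higher and 1 lower.

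Most ligand genes of the receptors were called higher. Of 15 collagen genes 12 were higher and 0 lower against naïve (median 2.05), and 10 were higher against contralateral (median 1.21). Col5a1 had a log2 fold change of 3.25, Col6a2 of 3.08, Col6a1 of 3.04, Col5a2 of 2.87 and Col16a1, a fibril-associated collagen, of 2.85. Col1a1 was 2.05 against naïve but 0.77 against contralateral (FDR = 0.188), the contralateral libraries being at 29822 ± 19822 CPM. Without contralateral replicate 1 it was called, at 1.48 (FDR = 0.00609), and 12 of the 15 collagens were higher. Col2a1, the main cartilage collagen, was not called (0.25, FDR = 0.358). Of 11 laminin genes 6 were higher and 1 lower (median 0.79), with Lama4 at 1.71, Lamc1 at 1.44, Lama5 at 0.80 and Lamc3 at -1.33. Of 21 RGD and other ligands 16 were higher and 0 lower (median 1.19), and against contralateral 15, also without replicate 1. Fn1, the ligand of α5β1, was 2788 ± 656 CPM in naïve and 8540 ± 2145 CPM in day 7 injured libraries (1.63, FDR = 5.33e-05). Postn (periostin) had a value of 4.29, Tnc (tenascin-C) of 1.47, Fbn2 of 4.42, Edil3 of 2.34, Tgfb3 of 1.86 and Ltbp1, which holds latent TGFβ in matrix, of 1.33. Vtn, the vitronectin gene, was 3.48 ± 1.13 and 5.82 ± 1.03 CPM (0.77, FDR = 0.114), and Spp1 (osteopontin) had a value of 0.42 (FDR = 0.0504), so neither passed. With library totals, 12 collagen genes, 4 laminin genes and 13 of the 21 other ligands were higher, and 1 laminin gene was lower.

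**Figure D4:**
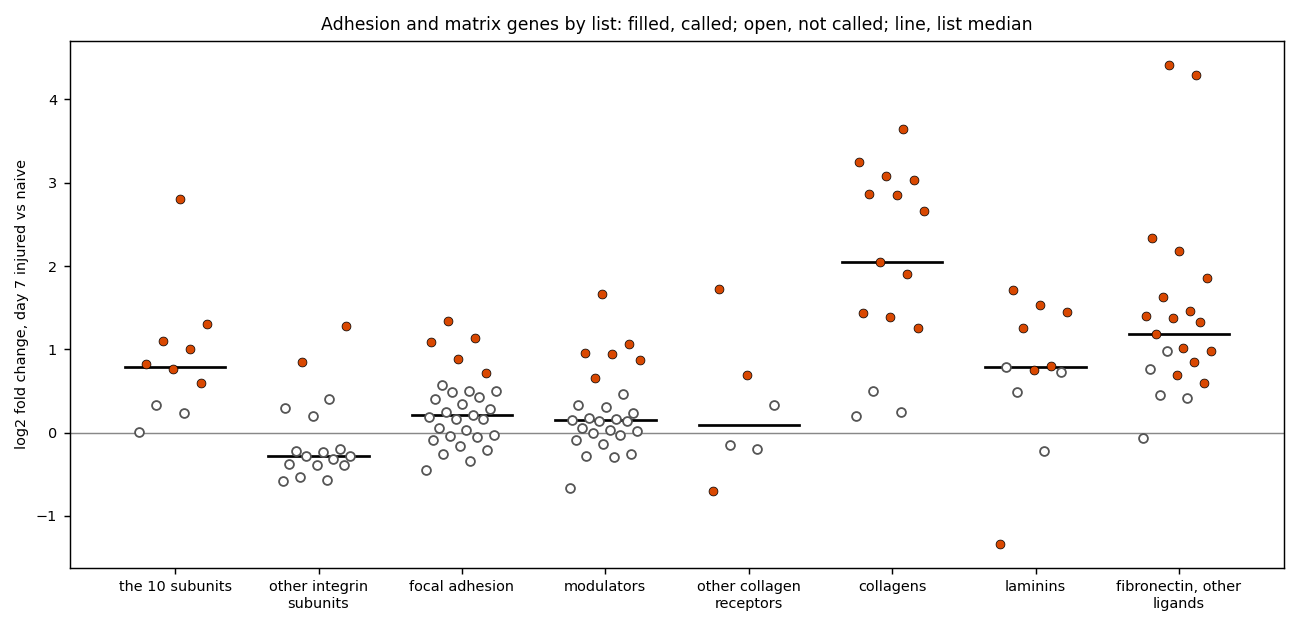
Change on the log2 scale from naïve to day 7 injured cartilage for every tested gene of the 10 integrins and of the lists of other integrins, focal adhesion genes, modulators, other collagen receptors and ligands, filled where called, open where not, with a line at each median. The 10 integrins have a median of 0.79, collagen ligands have a median of 2.05, other integrin subunits of -0.27.

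Markers of other cell types moved with these genes. Of 12 fibroblast markers 9 were called higher against naïve and 0 lower, 3 of the 9 (Col1a1, Col1a2 and Col3a1) also being in the collagen list. Their summed level was 16836 to 28261 CPM in naïve and 97255 to 110989 CPM in day 7 injured libraries, with Col1a1 the most abundant. In day 7 contralateral libraries it was 84096, 26935 and 36733 CPM, and in replicate 1, with the highest of these sums, Itga11 was 16.8 CPM, the lowest of its group. Replicate 1 is the library that had 42.5% of its counts in 10 genes, and Col1a1 alone made 52440 CPM of its fibroblast sum. Its chondrocyte (15560 CPM) and red cell (64749 CPM) sums were also the highest of that group. Summed mural cell markers (8 genes, 5 called higher) were 416 to 560 CPM and 862 to 1103 CPM, and endothelial markers (10 genes, 5 called higher) 575 to 667 and 745 to 837 CPM, in naïve and day 7 injured libraries. Of 16 chondrocyte markers 4 were higher (Acan, Col11a1, Comp and Sox9) and 1 lower (Chad), with sums of 5225 to 9450 CPM and 8821 to 10711 CPM. Red cell markers fell in 5 of 9 and fat cell markers in 5 of 10, and macrophage markers were called in 0 of 10 by edgeR, with a median of 0.33. Skeletal muscle markers, led by Myh4, summed to 3633 to 12285 CPM in naïve libraries, on the order of the chondrocyte sums, and to 2899 to 6195 CPM in day 7 injured libraries, with 1 of 10 called lower and a median log2 fold change of -0.76. Of 10 markers each, 1 was higher and 2 lower for osteoblasts, 1 higher for osteoclasts and 1 lower for B cells, while the proliferation list had a median log2 fold change of -0.26 with no call by edgeR. These counts also moved with scaling, as did those of all genes. With library totals 4556 of 21129 genes were lower and 1268 higher, and their median was -0.35. With library totals, 8 of 12 fibroblast, 3 of 8 mural and 1 of 10 endothelial markers were higher, with 1 endothelial marker lower. Under that scaling 8 of 9 red cell, 10 of 10 fat cell, 10 of 10 platelet and 7 of 10 neutrophil markers were lower, in place of 5, 5, 4 and 2, and 5 of 10 of each of the muscle, B cell and proliferation lists and 4 of 10 osteoblast markers were lower. No marker was at 0 in all libraries. The part of these cell types in the integrin values was not tested.

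Each member's counts came from 2 or more annotated transcripts. Coding transcripts held most of them for every member in all 18 libraries. The share was lowest for Itga6, at 62.9% to 76.8%, a processed transcript without a reading frame taking 21.8% to 35.6% of its estimated counts. It was 79.9% to 100% for Itga11 and 81.0% to 87.9% for Itga1, with retained introns taking most of the rest, and at least 87.1% for the other 7 members. For Itgb5, transcript Itgb5-201 took 15.3% in naïve (0% to 28.3%) and 26.0% in day 7 injured libraries (20.6% to 35.5%), with overlapping ranges. Exons of Itga1, Itga10 and Itgav overlap those of Gm49395, Gm42957 and Gm13684, which had mean estimated levels of at most 1.96 CPM. How reads were divided between these overlapping genes was not tested.

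Among 14050 genes with a mean of at least 1 CPM, the protein-coding genes most like 3 members over the 18 libraries were found by Pearson correlation of log2(CPM + 1), a description since the libraries share groups. Those closest to Itga11 were Antxr1, a collagen-binding receptor (r = 0.992), Fkbp7 (0.987) and Zfp354c (0.987). Antxr1 was 69.5 to 97.1 CPM in naïve and 482.2, 624.4 and 768.4 CPM in day 7 injured libraries. Those closest to Itga10 were B4galnt3 (0.954), Col22a1 (0.951) and Col11a1 (0.935), the latter a cartilage collagen. Those closest to Itga5 were Snai1, a transcription factor of the Snail family (0.984), Akr1b8 (0.980) and the zinc transporter Slc39a14 (0.980). Slc39a14 was at 130.6 CPM in naïve replicate 5, 140.6 CPM in day 1 contralateral replicate 3 and 130.3 CPM in day 1 injured replicate 2, the 3 libraries outside day 7 injury where Itga5 was also high, and at 27.7 to 54.8 CPM in the other 12 outside that group.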

How the data were processed

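The deposited files hold, for each library, the estimated counts and transcript abundances (TPM) that the authors made with kallisto for 137436 transcripts. The strand setting is not given in the sources used here. Of the transcripts, 98.3% matched GENCODE M21 (GRCm38) by identifier, 99.3% of these at the same length, and counts and TPM were summed over 49184 genes, the unmatched 0.667% to 3.90% of counts being left out. Counts were rounded and tested with edgeR 4.0.16 in R 4.3.3 (TMM, filterByExpr, quasi-likelihood F test, Benjamini-Hochberg over all genes tested), with a call at FDR of at most 0.05 and 1.5-fold. Comparisons without the day 7 contralateral group used a fit of 15 libraries, the others of 18. Standard errors are |log2 fold change| divided by the square root of F, and 95% intervals use edgeR's degrees of freedom. The procedure was tested on simulated data. DESeq2 1.42.0, limma-voom (limma 3.58.1), other scalings, filters, a length offset and leaving out libraries were the alternatives. The study removed 1 library for low mapping without naming it, and all 18 deposited libraries were used here. The study modelled libraries from the same mouse pool as correlated, whereas the fits here treat libraries as independent, since the labels do not say which share a pool. Replicate numbers follow accession order.

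The members, lists and tests were chosen with earlier results of these data known, so list counts are descriptions. Named by rule were the members, all other integrin subunits, up to 5 called genes of each list by FDR and direction (day 7 injured against naïve), and the best known ligands. Dab2, Tln1, Tln2, Vcl, Flna, Fermt1 and Fermt3 fell outside it and were named after their values were seen. A called gene of these lists that the rule would name is not reported here.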

Additional observations from a re-analysis of the deposited data

Results flagged for a closer look

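Itga5 was 130.8 CPM in naïve replicate 5, farther from the other 5 naïve libraries than their spread, by Dixon's test at the 95% level. Of 10 members tested this way in the naïve group 1 stood out, and chance gives about 1 in 20.

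The injured-minus-contralateral difference was not the same at day 7 and day 1 for 4 of 27 integrin subunits by the edgeR interaction test, where 3.53% of all genes were called higher and 0.245% lower. It was larger at day 7 by 2.25 log2 units for Itga11, by 0.96 for Itgb1 and by 1.16 for Itgb4 (FDR = 0.0354), and it was lower by -0.60 for Itgal (FDR = 0.0301). Values of Itga11 and Itgb1 without single libraries were 2.01 to 2.53 and 0.84 to 1.05. With library totals Itgb1 did not pass (0.75, FDR = 0.117), and 252 genes were called higher and 94 lower. The alternatives were not run for Itgb4 and Itgal in this test.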

How the results depend on the processing

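Against naïve at day 7 the members called were 3 with library totals and 3 to 8 over 11 settings, and 5 to 7 without single libraries. Against contralateral at day 7 they were 4 to 7 over 10 settings and 4 to 6 without single libraries. Between injured groups of day 7 and day 1 they were 2 with library totals and 3 with each of DESeq2, DESeq2 size factors in edgeR, a mean of at least 1 CPM, protein-coding transcripts only and all 18 libraries in the fit, with 3 to 6 without single libraries. For the larger injury difference at day 7 the count was 1 with library totals and 2 to 3 without single libraries. In the 4 comparisons with 0 calls it was 0 throughout. The cause of these shifts was not tested.

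Directions turned with library totals for Itga2 (-0.075), Itga9 (-0.014) and Col2a1 (-0.062) against naïve, for Itga1 (-0.13) and Itga2 (-0.16) between injured groups, and for Itga2 in the injury difference (-0.042). They also turned for Itgae against naïve with coding transcripts only (0.20), for Itga2 with a length offset (-0.25 against contralateral, -0.44 in the injury difference) and for Col2a1 against contralateral without day 7 contralateral replicate 1 (0.40, the range without single libraries being -0.86 to 0.40). None of these was a call in the fit reported. Values within 1 SE of 0, such as Itga6, were given no direction. Other single-gene results gained a call in 46 fits and lost one in 63. The remaining 2181 kept their call status, and their direction where one was given. Values within 1 SE of 0 could change sign among these, as Itga6 did against naïve (0.01, or -0.31 with library totals).

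Groups of 3 or 6 libraries and 59 to 15896 counts per member limit precision, and the largest SE against naïve at day 7 was that of Itga5 (0.382). No paired analysis was possible because the labels give no numbers that tie an injured to a contralateral pool.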
